A study of Mus musculus with 18 samples.

Results

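Mitochondrial ribosomal protein genes were followed here through the activation of mouse splenic B cells, separately on the 129 and on the Cast allele. The genes were chosen by symbol alone, Mrpl or Mrps followed by a digit and without a pseudogene suffix. They numbered 73 of 40327 genes in the 129 tables and 76 of 39147 genes in the Cast tables, 77 in either and 72 matched between both. Mrpl14 was listed only in the 129 tables, and Mrpl33, Mrpl41, Mrps21 and Mrps33 only in the Cast tables.

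All cells came from female F1 mice of a 129S1 by Cast cross that were Xist+/-, so the controls carried the same Xist genotype, and per the labels X inactivation always fell on the Cast copy. CD23 is a surface marker of mature follicular B cells, and CD23+ B cells from spleen were either naive with no treatment (3 samples) or cultured for 24 h with CpG at 1 µM (3 samples). CpG oligonucleotides mimic microbial DNA and trigger B cells by way of an endosomal Toll-like receptor. RNA sequencing reads of each sample had been counted per gene in 2 tables, 1 for each parental strain, so that each gene has a level on each allele. No cultured group without CpG was among these 6 samples, so stimulation and time in culture cannot be told apart. The labels used here give no age, no pooling of animals and no statement of what a replicate is, so p-values measure only the spread between these samples. The other 12 of the 18 samples in the series are not analysed here.

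The mitochondrial ribosome translates the few messages of the mitochondrial genome, all of which encode core subunits of the oxidative phosphorylation complexes. Its own proteins are encoded in the nucleus, made in the cytosol and imported, with Mrpl genes named for the large and Mrps genes for the small subunit. Lymphocytes that leave quiescence are known to grow and to increase their mitochondrial content.

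Gene reads per sample ran from 1987266 to 2928236 for the 129 allele and from 2465073 to 3321753 for the Cast allele. Levels are given as CPM, the usual scaled share of a gene in the gene reads of 1 allele's table, with edgeR's TMM factors. The 10 B cell markers of the 129 tables were all lower after CpG, their summed level going from between 9872 and 12116 CPM to between 3502 and 4245 CPM, and the 9 of the Cast tables were also all lower. Of 16 red pulp macrophage markers, 15 were tested and all 15 were lower in both sets of tables. Their sum was 3917 to 8118 CPM in naive samples and 31.2 to 37.0 CPM after CpG on the 129 allele, and 3083 to 6767 and 23.7 to 30.9 CPM on the Cast allele. Cd163 and Fcna had no 129 read, and Axl, C1qa, Fcna and Mertk no Cast read, in any CpG sample. The 6 T cell markers summed to 27.8 to 42.1 CPM in naive samples and to at most 0.719 CPM after CpG on the 129 allele. In these bulk samples, fewer cells of a type and less RNA per cell cannot be told apart, and the part of these other cells in the results was not tested.

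The mitochondrial ribosomal protein genes rose nearly throughout, on both alleles. Among 129 reads, 56 of the 66 members tested were higher after CpG and 0 were lower (edgeR quasi-likelihood test, Benjamini-Hochberg adjusted p under 0.05), where 28.2% of all 10581 genes tested were higher and 27.0% lower. Among Cast reads, 63 of 71 were higher and 0 lower, against 30.7% and 31.5% of all 10365 genes tested. The median log2 fold change over the members tested was 1.31 on the 129 allele, a 2.49-fold rise, and 1.26 on the Cast allele, a 2.40-fold rise. Over all genes tested the medians were -0.01 and -0.04. Genes low in naive cells can enter the test through their CpG samples alone, so the counts were also taken over genes with 10 or more reads in every naive sample. Of such members 53 of 59 on the 129 allele and 58 of 66 on the Cast allele were higher and 0 lower, with medians of 1.32 and 1.21, where 26.8% and 28.2% of all such genes were higher. The members called without that depth were Mrpl53, Mrps6 and Mrps18b on the 129 allele and Mrpl55, Mrpl57, Mrps6, Mrps7 and Mrps34 on the Cast allele. Their calls are left out of the counts at that depth. They are part of every count over all members tested, above and below, where they are no support for the rise.

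The summed level of all members showed the rise in every sample. On the 129 allele it was 2685, 2606 and 2874 CPM in the naive samples and 6222, 6578 and 6458 CPM in the CpG samples, that is 2722 ± 138 and 6419 ± 181 (SD, n = 3 each). For the Cast allele the sum was 2689, 2665 and 2781 CPM in the naive samples and 6027, 6051 and 5885 CPM after CpG, or 2712 ± 61.0 and 5988 ± 89.4 (SD, n = 3 each). The groups did not overlap on either allele, and their means stood 2.36-fold and 2.21-fold apart. The share of aligned reads that fell in no gene also separated the groups, at 62.6%, 65.2% and 67.1% in the naive and 56.7%, 48.1% and 52.8% in the CpG samples of the 129 tables, and at 57.9%, 62.1% and 60.9% and then 52.3%, 44.5% and 48.4% in the Cast tables. The part of that share in the rise was not tested. On the 129 allele naive replicate 1 had the highest macrophage marker sum, 8118 CPM against 3917 CPM in naive replicate 2. Its sum over the members was 2685 CPM, between those of the other naive samples. Whether the one bears on the other was not tested, and there were only 3 naive samples.

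The pairs of 1 replicate number gave the same picture 1 by 1. On the 129 allele, on a log2(CPM + 1) scale, 65, 65 and 66 of the 66 members tested were higher in the CpG sample of replicates 1, 2 and 3, with median differences of 1.32, 1.37 and 1.14. Of 71 members on the Cast allele, 69 were higher in each of the 3 pairs, with medians of 1.21, 1.31 and 1.13. Over all genes tested, between 49.0% and 50.1% were higher in each pair. Every CpG sample lay above every naive sample for 60 members on the 129 allele, where 32.6% of all genes did so, and for 62 on the Cast allele, where 33.7% did.

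**Figure D1:**
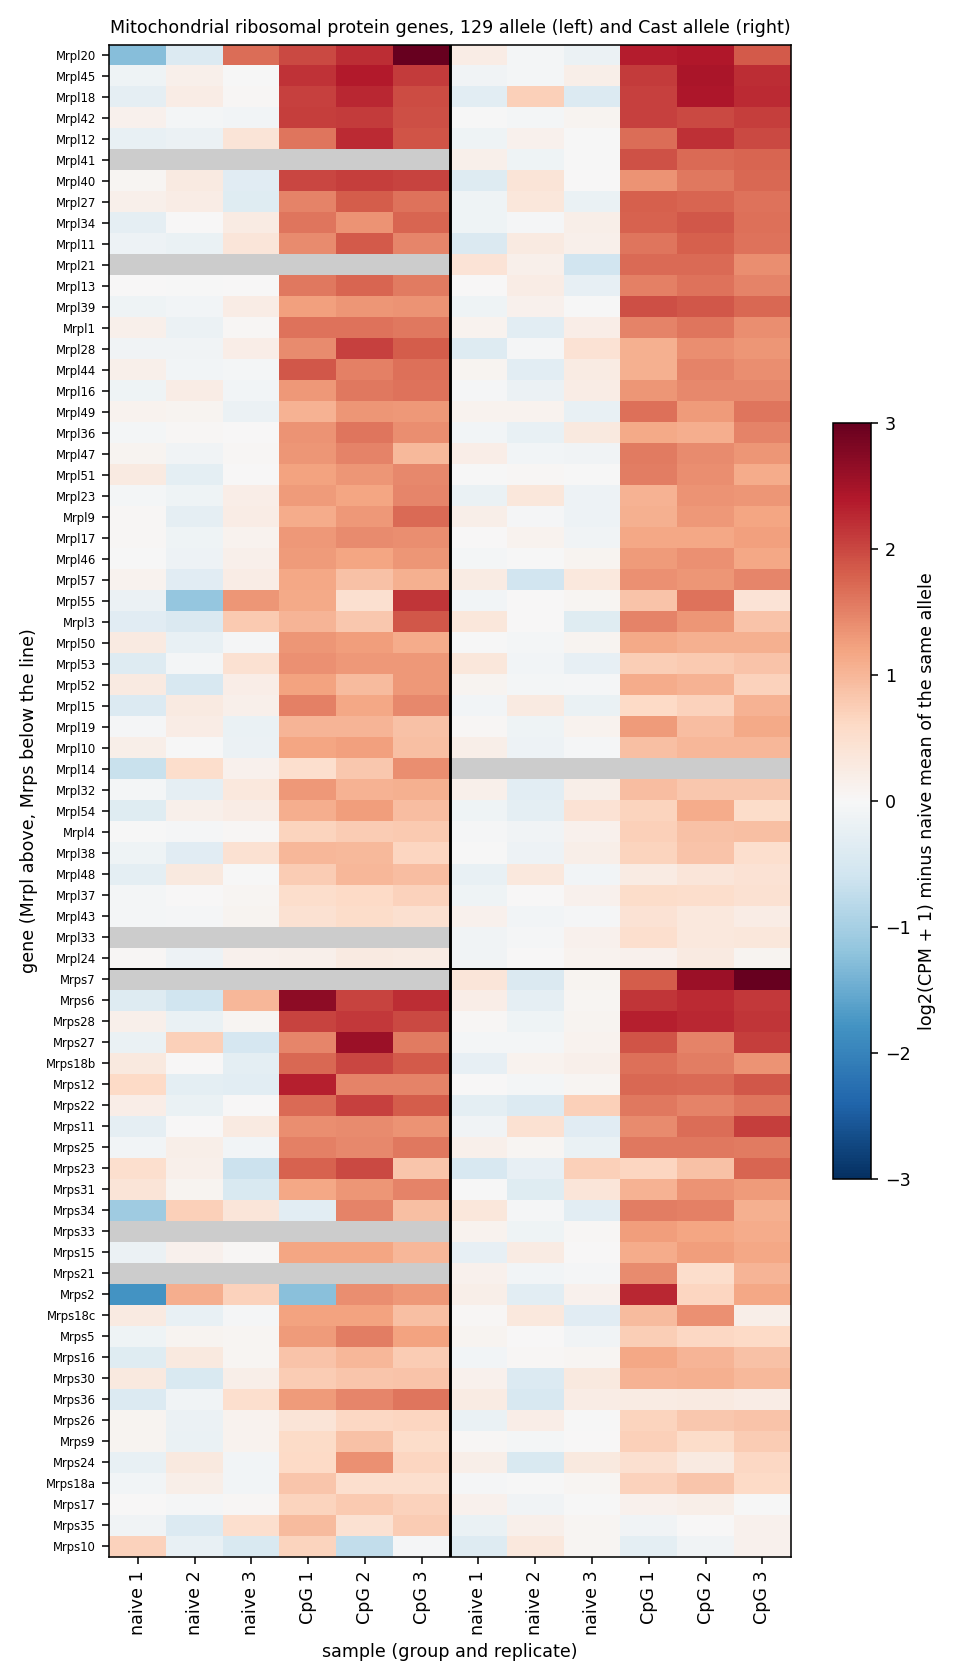
Heat map of log2(CPM + 1) minus the naive mean of the same allele, with 1 row per gene (Mrpl above, Mrps below) and 1 column per sample, 129 allele at the left and Cast allele at the right. The 3 CpG columns of each allele are raised in nearly every row, with few pale rows.

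Of the 65 members tested on both alleles, 51 were called higher on both, 5 only in the 129 tables and 6 only in the Cast tables. The 5 were Mrpl43, Mrpl48, Mrps17, Mrps24 and Mrps36, and the 6 were Mrpl3, Mrpl20, Mrpl55, Mrps2, Mrps26 and Mrps34. In all, 68 of the 77 members were called higher in at least 1 set of tables. Over all genes tested, 28.2% were higher in the 129 and 30.7% in the Cast tables. The shares of all genes higher in both sets, or in at least 1, were not counted. A call in 1 set of tables and not in the other does not show a difference between the alleles, which is tested further on. The fit with the replicate number as a block gave 60 and 64 members higher and 0 lower, where 33.1% and 32.9% of all genes were higher and 31.9% and 33.3% lower, adding Mrpl3, Mrpl20, Mrpl55 and Mrps35 on the 129 allele and Mrps24 on the Cast allele.

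Mrpl14 was tested on the 129 allele alone and did not pass (log2 fold change 1.01, SE 0.48, edgeR adjusted p = 0.112). Mrpl21, Mrpl33, Mrpl41, Mrps7, Mrps21 and Mrps33 were tested on the Cast allele alone, and all 6 passed, Mrps7 from naive reads of 2, 0 and 1. A further 5 members were tested in neither set of tables because their counts were low. Mrpl2, Mrpl22, Mrpl30 and Mrps14 had at most 12 reads in any sample on either allele. Mrpl35 had 5, 5 and 4 reads in the naive and 19, 11 and 15 in the CpG samples on the 129 allele, and 7, 4 and 3 against 12, 20 and 10 on the Cast allele. Mrps7 was tested in the Cast tables only through its CpG samples, with 2, 0 and 1 reads in the naive and 12, 23 and 33 in the CpG samples. Its 129 counts were 0, 0 and 0 in the naive samples and 15, 19 and 0 after CpG, so no fold is given for it.

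Most members rose by between 1 and 2 log2 units, and the size of the rise varied among them. Of the 59 members with 10 or more 129 reads in every naive sample, 37 had a log2 fold change between 1 and 2, 6 were above 2 and 16 below 1. Of the 66 with that depth on the Cast allele, 38 were between 1 and 2, 6 above and 22 below. The middle 50% of the members tested spanned 0.93 to 1.63 on the 129 allele, an interquartile range of 0.70, against 1.65 for all genes tested. The Cast allele's members spanned 0.84 to 1.62, a range of 0.77 against 1.69. All genes tested hold both rises and falls, while nearly all members rose, so these ranges are not like for like. With the members low in naive cells left out, the ranges were 0.67 and 0.78. Some of the related gene lists described further on were narrower. The ranges were 0.55 and 0.57 for cytosolic ribosomal proteins, 0.45 and 0.41 for 6 further mitoribosome subunits and 0.62 and 0.48 for assembly factors. Oxidative phosphorylation genes, at 0.87 and 0.78, and genes for mitochondrial DNA transcription, replication and RNA, at 1.05 and 1.37, were wider. Translation factors were narrower on the 129 allele, at 0.42, and wider on the Cast allele, at 1.16. Within 0.5 log2 units of their own median lay 63.6% and 60.6% of members, where 32.0% and 32.1% of all genes lay within 0.5 of theirs. Standard errors had medians of 0.20 and 0.18 for the members and 0.25 and 0.23 for all genes, so the spread among members exceeded the error of a single estimate. Against a threshold of a 2-fold change rather than of no change, 25 members on the 129 allele (12.0% of all genes) and 27 on the Cast allele (13.6%) were higher.

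Genes named for either subunit rose. Of the Mrpl genes 36 of 41 tested were higher on the 129 allele, with a median log2 fold change of 1.34, and 40 of 43 on the Cast allele, with a median of 1.28. Of the Mrps genes 20 of 25 were higher with a median of 1.17, and 23 of 28 with a median of 1.15. Over all genes tested, 28.2% were higher on the 129 and 30.7% on the Cast allele. The spread was wider among the Mrps genes, with interquartile ranges of 0.86 and 0.95 against 0.51 and 0.66 for the Mrpl genes. These groups are by symbol and not by place in the ribosome. The Mrps genes include Mrps18a and Mrps36, which are known from elsewhere than the small subunit, as described further on. No test of the difference between the groups was made.

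The largest rises called on both alleles came from both subunits. Mrpl45 on chromosome 11, a large subunit protein near the exit of the peptide tunnel, stood at 39.2, 47.8 and 42.6 CPM in the naive samples and at 197, 230 and 187 CPM after CpG on the 129 allele. Its Cast levels stood at 29.8, 30.7 and 36.1 CPM and then at 141, 180 and 154 CPM. The groups lay far apart on each, with log2 fold changes of 2.24 (SE 0.14, edgeR adjusted p = 2.31e-05) and 2.30 (SE 0.15, adjusted p = 2.72e-06), or 4.73-fold and 4.92-fold.

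Mrpl42 on chromosome 10, another large subunit protein, was at 68.4, 59.4 and 58.7 CPM and rose to 265, 268 and 238 CPM on the 129 allele. Its Cast values were 49.0, 46.9 and 52.0 CPM and then 206, 198 and 210 CPM. Both alleles gave a log2 fold change of 2.05 (SE 0.12 each, edgeR adjusted p = 1.9e-05 and 1.53e-06), with naive and CpG samples tightly grouped.

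Mrps28 on chromosome 3, a small subunit protein, was at 40.4, 31.2 and 37.6 CPM in the naive and 151, 160 and 145 CPM in the CpG samples on the 129 allele. Its Cast levels were 26.7, 23.8 and 27.5 CPM and then 135, 128 and 118 CPM. The log2 fold changes were 2.06 (SE 0.14, edgeR adjusted p = 2.93e-05) and 2.29 (SE 0.14, adjusted p = 1.77e-06), again with no overlap.

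Mrpl18 on chromosome 17, a protein of the central protuberance of the large subunit, had few reads and still separated fully. It was at 4.73, 7.06 and 6.02 CPM and then at 27.3, 31.9 and 25.8 CPM on the 129 allele. On the Cast allele 1 naive sample was higher than the others, with 6.03, 13.3 and 5.58 CPM, against 35.0, 46.0 and 39.9 CPM after CpG. The log2 fold change was 2.25 on both alleles (SE 0.26 and 0.32, edgeR adjusted p = 0.000291 and 0.000223).

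Mrps6 on chromosome 16, a small subunit protein, had few reads in naive cells, at 7, 6 and 19 on the 129 and 9, 6 and 7 on the Cast allele, against 58 to 92 and 50 to 55 after CpG. It entered the test only through its CpG samples, so that its log2 fold changes, 2.38 (SE 0.51) and 2.49 (SE 0.31), are given as values and not ranked. Its 129 levels were 3.01, 2.49 and 9.53 CPM in the naive and 33.1, 20.6 and 23.4 CPM in the CpG samples on the 129 allele. Its Cast levels were 3.39, 2.16 and 3.01 CPM and then 15.8, 17.0 and 15.7 CPM. Naive replicate 3 was the highest naive sample on the 129 allele and still below every CpG sample.

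Mrpl12 on chromosome 11, a protein of the stalk that receives translation factors, went from 17.6, 18.3 and 27.6 CPM to 65.1, 102 and 78.9 CPM on the 129 allele. Its Cast values went from 17.0, 20.6 and 18.5 CPM to 61.8, 88.2 and 76.1 CPM. Replicate 2 was the highest CpG sample on both alleles, and the log2 fold changes were 1.96 (SE 0.25, edgeR adjusted p = 0.000477) and 2.01 (SE 0.19, adjusted p = 1.67e-05).

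Mrpl40 on chromosome 16, a large subunit protein, went from 28.0, 32.8 and 21.1 CPM to 111, 117 and 112 CPM on the 129 allele, which is 2.05 on the log2 scale (SE 0.18, edgeR adjusted p = 8.17e-05). On the Cast allele it went from 17.7, 31.4 and 23.6 CPM to 62.1, 72.8 and 79.6 CPM, a log2 fold change of 1.56 (SE 0.22, adjusted p = 0.000207). Mrps27 on chromosome 13, a small subunit protein with RNA-binding repeats, varied with the replicate number, most clearly on the 129 allele. There it was at 19.8, 38.2 and 16.0 CPM in the naive and 65.4, 141 and 69.5 CPM in the CpG samples, replicate 2 being the highest of each group. Its Cast values were 44.5, 44.4 and 49.4 CPM and then 174, 130 and 197 CPM, replicate 2 being the lowest CpG sample. Which alleles the samples of each replicate number carry around Mrps27 was not tested. The log2 fold changes were 1.89 (SE 0.44, edgeR adjusted p = 0.0108) and 1.86 (SE 0.17, adjusted p = 1.59e-05).

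The members with the highest mean CPM over both alleles, a share of reads that also depends on transcript length, were Mrps17, Mrpl42, Mrpl13 and Mrpl3. Mrpl13 on chromosome 15, a large subunit protein, went from 82.2, 81.0 and 81.7 CPM to 247, 278 and 243 CPM on the 129 allele. Its Cast levels went from 71.2, 81.9 and 59.3 CPM to 203, 218 and 199 CPM. Its log2 fold changes were 1.65 (SE 0.11, edgeR adjusted p = 2.62e-05) and 1.54 (SE 0.14, adjusted p = 1.62e-05), with no overlap between groups.

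Mrpl3 on chromosome 9, a protein of the large subunit core, showed a rise within each replicate number but wide spread between numbers. On the 129 allele it was at 47.8, 44.9 and 106 CPM in the naive and 126, 107 and 227 CPM in the CpG samples, and both samples of replicate 3 were high. Which alleles the samples of each replicate number carry around the gene is uncertain, as described further on. The log2 fold change of 1.21 (SE 0.44) did not pass there (edgeR adjusted p = 0.0574). It passed with the replicate number as a block (adjusted p = 7.18e-07), and without naive replicate 3 (1.73, adjusted p = 0.0109). On the Cast allele, at 136, 109 and 83.3 CPM and then 301, 271 and 194 CPM, the change was 1.22 (SE 0.21, adjusted p = 0.000896).

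**Figure D2:**
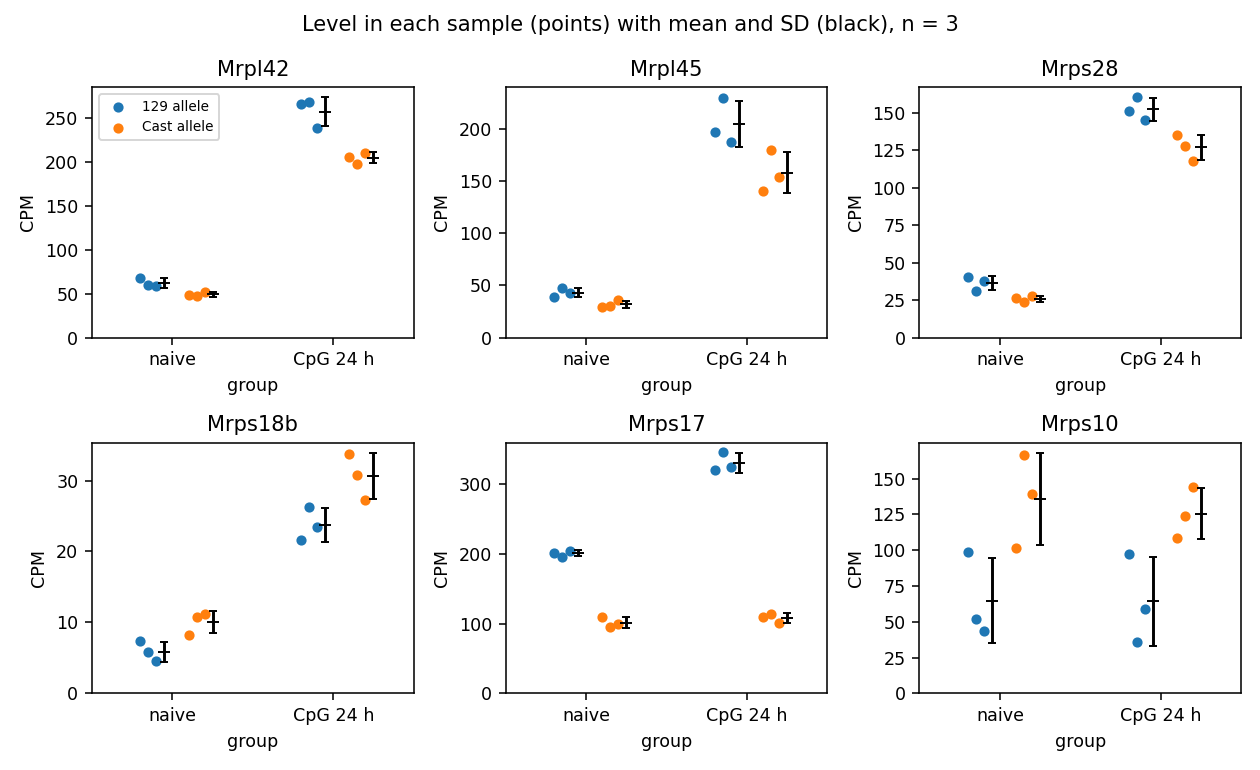
Level in CPM of selected members in each naive and CpG sample (points, n = 3 per group) on the 129 and the Cast allele, with the mean and SD in black, each axis starting at 0. Mrpl42, Mrpl45, Mrps28 and Mrps18b separate on both alleles, the Mrps17 groups overlap on the Cast allele, and the Mrps10 groups overlap on both.

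The paralogs Mrps18a, Mrps18b and Mrps18c, 3 related proteins of which the first is placed in the large subunit in known structures, rose by different amounts. Mrps18a on chromosome 17 went from 51.2, 61.5 and 51.6 CPM to 97.5, 77.3 and 77.5 CPM on the 129 allele, and from 50.9, 51.9 and 54.5 CPM to 85.4, 93.4 and 79.3 CPM on the Cast allele. Its log2 fold changes, 0.62 (SE 0.16, edgeR adjusted p = 0.0122) and 0.71 (SE 0.13, adjusted p = 0.0012), were among the smaller ones that passed.

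Mrps18b, also on chromosome 17, was at 7.31, 5.82 and 4.51 CPM and then at 21.6, 26.2 and 23.4 CPM on the 129 allele. Its Cast values were 8.29, 10.8 and 11.2 CPM and then 33.7, 30.8 and 27.2 CPM. The log2 fold changes were 2.00 (SE 0.28, edgeR adjusted p = 0.000677) and 1.60 (SE 0.22, adjusted p = 0.000214). With 17, 14 and 9 naive reads, the 129 value is among those low in naive cells.

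Mrps18c on chromosome 5 was at 12.0, 8.31 and 9.53 CPM and then at 24.1, 24.1 and 19.2 CPM on the 129 allele, a rise of 1.17 on the log2 scale (SE 0.26, edgeR adjusted p = 0.00631). Its Cast levels were 8.67, 10.8 and 6.44 CPM and then 17.3, 23.4 and 9.77 CPM, so that CpG replicate 3 fell among the naive samples. The Cast change of 0.95 (SE 0.37, edgeR adjusted p = 0.0481) was at the threshold. With DESeq2's size factors its adjusted p was 0.0511, and without naive replicate 1, naive replicate 3, CpG replicate 1 or CpG replicate 2 it was 0.0922, 0.125, 0.0894 or 0.161 in edgeR.

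Of the members tested on both alleles, 3 passed on neither. Mrpl24 on chromosome 3, a large subunit protein, was at 55.9, 49.4 and 59.7 CPM and then at 61.1, 66.3 and 65.3 CPM on the 129 allele. Its Cast values were 43.7, 47.3 and 50.7 CPM in the naive and 51.7, 56.7 and 50.01 CPM in the CpG samples. The 129 groups did not overlap but lay close together, and the log2 fold changes were 0.22 (SE 0.14, edgeR adjusted p = 0.206) and 0.16 (SE 0.14, adjusted p = 0.349).

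Mrps10 on chromosome 17, a small subunit protein, had groups that overlapped on both alleles. It was at 98.5, 51.9 and 43.6 CPM and then at 97.5, 36.2 and 59.0 CPM on the 129 allele, where replicate 1 was high in both groups. Its Cast levels were 102, 166 and 139 CPM and then 108, 124 and 144 CPM, and there replicate 1 was low in both. The log2 fold changes were -0.01 (SE 0.45, edgeR adjusted p = 0.982) and -0.11 (SE 0.19, adjusted p = 0.623).

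Mrps35 on chromosome 6, a small subunit protein, was at 17.6, 14.1 and 27.6 CPM and then at 37.4, 26.6 and 32.8 CPM on the 129 allele. The change of 0.71 (SE 0.29, edgeR adjusted p = 0.0716) passed with the replicate block (adjusted p = 0.0126) and without naive replicate 3 (1.02, adjusted p = 0.0204). Its Cast values were 65.9, 84.1 and 78.6 CPM and then 70.3, 76.8 and 82.9 CPM, an overlap of the groups and a change of 0.01 (SE 0.14, adjusted p = 0.961).

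Leaving out single libraries ended the call of 2 other members on the 129 allele, Mrpl38 and Mrps24. Mrpl38 (edgeR adjusted p = 0.0168) gave 0.0563 without naive replicate 1, 0.0532 without CpG replicate 1 and 0.0523 without CpG replicate 2. Mrps24 (0.018) gave 0.0644 without naive replicate 1 and 0.0592 without naive replicate 3. Among Cast calls it ended those of 7 members, Mrps18c, Mrpl15, Mrpl33, Mrpl53, Mrpl54, Mrpl55 and Mrps23, with adjusted p-values between 0.0525 and 0.161, and each of the 6 Cast libraries ended at least 1 of them. Without naive replicate 3, Mrpl3, Mrpl20, Mrpl55 and Mrps35 were added on the 129 allele (adjusted p = 0.0109, 0.0147, 0.0389 and 0.0204). On the Cast allele Mrpl48 was added without naive replicate 2 (0.0244) and Mrps24 without naive replicate 3 (0.0402).

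The other parts of the mitochondrial translation machinery, from lists of known genes, were examined next. Of 6 further mitoribosome subunits whose symbols do not begin with Mrp, 4 were higher and 0 lower on the 129 allele (median log2 fold change 1.28), and 5 and 0 on the Cast allele (median 1.19). The shares higher were 66.7% and 83.3%, against 28.2% and 30.7% of all genes. Chchd1, a small subunit protein, rose by 1.43 (SE 0.48, edgeR adjusted p = 0.0367) and 1.69 (SE 0.39, adjusted p = 0.00412). It is among the 4 and 5, but was low in naive cells, with 11, 8 and 23 naive reads on the 129 allele. On the Cast allele it had 5, 12 and 12, so its changes are given as values only. Ict1, a peptidyl-tRNA hydrolase built into the large subunit, rose by 1.50 (SE 0.17) and 1.24 (SE 0.18), and Ptcd3, a small subunit protein with RNA-binding repeats, by 0.99 (SE 0.13) and 1.13 (SE 0.12).

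The translation factors, which load and move the ribosome along a message, were mixed. Of 12 tested on each allele, 3 were higher and 1 lower in the 129 tables (median 0.35), and 7 and 2 in the Cast tables (median 0.67). These are 25% and 58.3% higher, where 28.2% and 30.7% of all genes were higher and 27.0% and 31.5% lower. The list thus did not stand out on the 129 allele. Blocking by replicate number gave 5 and 1 on the 129 allele and 7 and 3 on the Cast allele. With that block 33.1% and 32.9% of all genes were higher, and 31.9% and 33.3% lower. The elongation factor gene Gfm1 was at 57.2, 66.9 and 66.2 CPM and then at 322, 317 and 267 CPM on the 129 allele, a rise of 2.25 on the log2 scale (SE 0.13, edgeR adjusted p = 1.83e-05), and rose by 1.73 (SE 0.14, adjusted p = 6.4e-06) on the Cast allele. Tsfm, which recharges the elongation factor Tufm, rose by 1.58 (SE 0.16) and 1.74 (SE 0.17), and the recycling factor Mrrf by 1.01 (SE 0.28) and 0.93 (SE 0.18).

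The initiation factor gene Mtif3, singled out after its values were seen, went the other way. It was at 56.4, 57.3 and 59.2 CPM in the naive and 34.5, 33.7 and 34.9 CPM in the CpG samples on the 129 allele, with no overlap. It fell by 0.74 (SE 0.14, edgeR adjusted p = 0.00278) there and by 0.60 (SE 0.16, adjusted p = 0.00955) on the Cast allele.

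Assembly factors, which modify the ribosomal RNAs or help put the subunits together, had medians of 0.23 and 0.11. Of 17 tested on the 129 allele 6 were higher and 1 lower, and of 16 on the Cast allele 4 and 1. These are 35.3% and 25% higher, near the 28.2% and 30.7% of all genes, so that the list as a whole did not stand out. Single genes of it that passed are given as values. Mrm2, a ribosomal RNA methyltransferase, had log2 fold changes of 0.78 (SE 0.20) and 0.95 (SE 0.19), and Fastkd2, an RNA-binding protein of mitochondrial RNA granules, of 0.54 (SE 0.15) and 0.71 (SE 0.16). Mrm1, another ribosomal RNA methyltransferase, fell by 0.65 (SE 0.21, edgeR adjusted p = 0.0316) and 0.85 (SE 0.19, adjusted p = 0.00388).

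Genes for mitochondrial DNA transcription, replication and RNA had medians of 0.08 and 0.03. Of 11 tested on each allele 5 were higher and 2 lower in the 129 tables, and 4 and 2 in the Cast tables. These are 45.5% and 36.4% higher, where 28.2% and 30.7% of all genes were higher and 27.0% and 31.5% lower. Single genes that passed are given as values. The higher ones included Elac2, which trims mitochondrial tRNAs, at 1.37 (SE 0.14) and 1.46 (SE 0.12), the helicase gene Supv3l1 at 1.19 (SE 0.30) and 1.33 (SE 0.23), and Lrpprc, a protein that stabilizes mitochondrial messages, at 1.04 (SE 0.10) and 1.30 (SE 0.11). The lower ones were Polg2, an accessory subunit of the mitochondrial DNA polymerase, which fell by 0.83 (SE 0.20, edgeR adjusted p = 0.00924) and 1.32 (SE 0.23, adjusted p = 0.000733), and Ssbp1, which coats single-stranded mitochondrial DNA, which fell by 0.40 (SE 0.14, adjusted p = 0.0453) and 0.38 (SE 0.13, adjusted p = 0.0271). Polg2 and Ssbp1 were named after their values were seen.

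Genes with symbols of oxidative phosphorylation subunits, whose complexes the mitochondrial ribosome helps to complete, were higher in 40 of 61 and lower in 3 on the 129 allele, with a median of 1.08, and higher in 46 of 64 and lower in 2 on the Cast allele, with a median of 1.03. The replicate block gave 49 and 50 higher, and 3 and 2 lower. Without the block those lower were Atp5sl on the 129 allele, and Cox7a2l and Ndufa7 on both. Atp5sl and Cox7a2l match by symbol but are known for the assembly of complex I and of supercomplexes, and Ndufa7 is a complex I subunit. Genes with symbols of cytosolic ribosomal proteins, whose ribosome translates all nuclear-encoded messages, had lower medians, with 36 of 73 higher and 0 lower and a median of 0.52 on the 129 allele, and 40 of 66 higher, 1 lower and a median of 0.48 on the Cast allele. With the block 49 and 44 were higher, and 0 and 1 lower. Beside these 2 lists, 28.2% and 30.7% of all genes were higher without the block, and 27.0% and 31.5% lower. With the block 33.1% and 32.9% were higher, and 31.9% and 33.3% lower. This list also took in Rps19bp1, a binding partner of a ribosomal protein and not one itself, at 1.80 and 1.36 on the log2 scale. It holds symbols that add letters to that of a ribosomal protein, such as Rps27l (2.37 and 2.56), Rpl7l1 (1.67 and 1.86) and Rpl22l1 (-0.60 and 0.48). The 1 lower gene, Rps27rt on the Cast allele (-1.14, edgeR adjusted p = 0.00231), is another. Many cytosolic ribosomal protein genes have near-identical copies in the genome, so their counts are uncertain where reads could be split. These medians are set side by side as a description, and the difference between the lists was not tested.

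**Figure D3:**
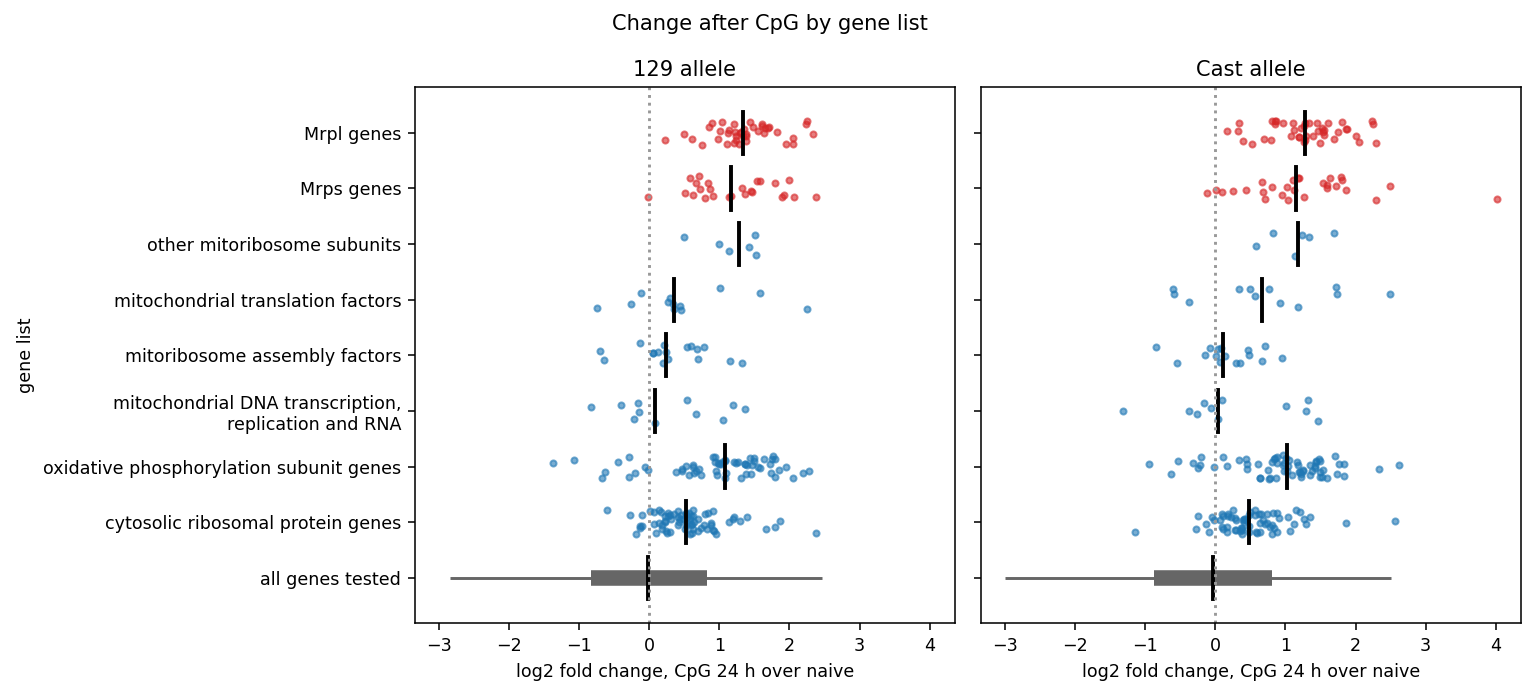
Log2 fold change of every tested gene (points) in the Mrpl and Mrps genes (red) and the lists of related genes (blue), CpG 24 h over naive, for the 129 allele (left) and the Cast allele (right), with a black line at each median and all genes tested as a thick bar between their quartiles on a thin line from the 5% to the 95% quantile. The medians stand at 1.34 and 1.28 for the Mrpl genes and 1.17 and 1.15 for the Mrps genes, at 0.52 and 0.48 for cytosolic ribosomal proteins, and near 0 for all genes. The Cast point near 4 is Mrps7, for which no fold is read.

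Because the members moved together, their promoters were examined in RefSeq promoter sequences of GRCm38.p6, each holding 250 bases before and 50 after a start site. Of the 77 members 68 had entries, 74 in all. The motifs were searched on both strands as exact letters, and in the windows printed here no 2 marked matches overlap. The ETS motif CCGGAAG was in 25 of the 74 entries (33.8%), in 19.5% of the promoters of tested genes and in 8.86% of all 32851 promoters. The Nrf1 motif was in 17.6%, 10.9% and 4.60%, and the Yy1 motif AAGATGGCG in 10.8%, 3.40% and 1.40%. The Myc E-box CACGTG was in 9.46%, 10.5% and 7.15%, and the Sp1 motif GGGCGG in 52.7%, 63.2% and 35.7%. Matches of letters are no evidence of binding, which was not measured here.

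The 120 bases before the start site are printed 5′ to 3′ on the gene's strand for 7 members, to show each motif as it stands in the promoters of genes that rose. Of those not described above, Mrps22 rose by 1.92 (SE 0.20) and 1.54 (SE 0.30), Mrps11 by 1.45 (SE 0.22) and 1.81 (SE 0.31), and Mrpl36 by 1.48 (SE 0.14) and 1.28 (SE 0.21) on the log2 scale of the 129 and the Cast allele. Capitals mark the motif matches, on either strand. The reference is the C57BL/6J assembly and not that of the 129 or Cast strain. Mrpl45 (chr11:97315596-97315715, plus strand) and Mrpl12 (chr11:120484517-120484636, plus strand) hold the Nrf1 motif, Mrpl45 in 2 places.
Mrpl45: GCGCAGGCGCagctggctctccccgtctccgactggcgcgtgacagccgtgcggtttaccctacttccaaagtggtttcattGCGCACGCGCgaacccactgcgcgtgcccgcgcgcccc
Mrpl12: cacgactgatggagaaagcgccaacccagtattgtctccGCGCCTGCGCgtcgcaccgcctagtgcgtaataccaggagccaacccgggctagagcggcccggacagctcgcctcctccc
Mrps27 (chr13:99344666-99344785, plus strand) and Mrps22 (chr9:98601680-98601799, minus strand) hold the ETS motif.
Mrps27: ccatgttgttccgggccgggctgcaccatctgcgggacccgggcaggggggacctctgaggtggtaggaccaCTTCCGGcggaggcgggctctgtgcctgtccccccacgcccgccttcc
Mrps22: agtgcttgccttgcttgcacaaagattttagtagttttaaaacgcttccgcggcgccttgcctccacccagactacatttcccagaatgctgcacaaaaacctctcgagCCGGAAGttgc
Mrps11 (chr7:78783011-78783130, plus strand) holds the Yy1 and the Sp1 motif, and Mrpl36 (chr13:73330889-73331008, plus strand) the E-box and the Yy1 motif.
Mrps11: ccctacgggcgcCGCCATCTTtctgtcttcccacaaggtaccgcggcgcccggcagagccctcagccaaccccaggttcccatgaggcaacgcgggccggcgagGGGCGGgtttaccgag
Mrpl36: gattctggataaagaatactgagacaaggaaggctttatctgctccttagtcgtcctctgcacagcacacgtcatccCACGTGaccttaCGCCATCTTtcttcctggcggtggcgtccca
Mrps17 (chr5:129715377-129715496, plus strand), the member that passed the test of a difference between alleles, holds an Sp1 motif.
Mrps17: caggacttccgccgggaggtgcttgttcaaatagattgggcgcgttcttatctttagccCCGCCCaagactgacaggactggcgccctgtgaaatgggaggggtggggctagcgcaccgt

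Whether the rise was as large on the Cast as on the 129 allele was tested directly, as an interaction of allele and CpG with a term for each sample, over 69 members among 10364 matched genes. The difference passed for 1 member, Mrps17 (edgeR adjusted p under 0.05), where 0.917% of all genes passed. At an unadjusted p under 0.05 there were 7 members of 69, where 11.4% of all genes passed, so the members did not exceed the background. The median size of the difference between alleles was 0.18 log2 units for the members, with a median standard error of 0.24, and 0.28 for all genes with a median standard error of 0.33. For 55 of the 69 members (79.7%) it was under 0.5, as for 70.5% of all genes. The rise was nominally larger on the 129 allele for 39 members and on the Cast allele for 30.

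Mrps17 on chromosome 5, a small subunit protein, was at 202, 196 and 205 CPM in the naive samples and at 320, 347 and 324 CPM after CpG on the 129 allele. This is 201 ± 4.31 and 330 ± 14.4 CPM (SD, n = 3 each) and a 1.64-fold rise, 0.72 on the log2 scale (SE 0.10, edgeR adjusted p = 0.000598). Its Cast levels were 110, 94.5 and 99.6 CPM and then 110, 114 and 101 CPM, or 101 ± 7.90 and 108 ± 7.05 (SD, n = 3 each). These Cast groups overlapped, and the change was 0.10 on the log2 scale (SE 0.12, edgeR adjusted p = 0.524).

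The Cast share of Mrps17 reads, its Cast reads over its reads of both alleles, was 38.4%, 35.7% and 36.2% in the naive and 28.2%, 27.5% and 26.8% in the CpG samples. It was lower in every CpG sample than in every naive sample, at 36.8% ± 1.41 and 27.5% ± 0.699 (SD, n = 3 each). The log2 fold change was 0.62 smaller on the Cast allele (Cast minus 129 -0.62, SE 0.10, edgeR adjusted p = 0.048), and with the replicate block the adjusted p was 0.000108. Without any 1 library, naive replicate 1, 2 or 3 or CpG replicate 1, 2 or 3, it was 0.179, 0.143, 0.143, 0.165, 0.166 or 0.169.

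With the replicate number as a block, 5 of the 69 members passed the interaction test, where 7.52% of all genes passed, so the members did not exceed the background. The 4 added were Mrps5, Mrpl39, Mrps35 and Mrps36. They did not pass without the block and are given as values. Mrps5 on chromosome 2, a small subunit protein, had a Cast share of 65.2%, 61.0% and 59.9% in the naive and 52.6%, 46.1% and 52.3% in the CpG samples, with no overlap. Its log2 fold change was 1.37 (SE 0.15) on the 129 and 0.66 (SE 0.13) on the Cast allele, a difference of -0.69 (SE 0.17, edgeR adjusted p = 0.137, with the block 0.00242).

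Mrpl39 on chromosome 16, a large subunit protein, differed in the other direction, with a Cast share of 38.03%, 41.6% and 34.7% and then 50.1%, 47.3% and 45.2%. Its log2 fold changes were 1.30 (SE 0.14) on the 129 and 1.86 (SE 0.14) on the Cast allele, a difference of 0.56 (SE 0.16, edgeR adjusted p = 0.195, with the block 0.0178).

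Mrps36 on chromosome 13 carries a mitoribosome name but is known as a subunit of the 2-oxoglutarate dehydrogenase complex. It had a Cast share of 42.9%, 25% and 27.7% and then 17.99%, 16.5% and 14.9%, from only 48 to 174 reads per sample. On the 129 allele it was at 12.0, 14.96 and 23.6 CPM and then at 41.0, 46.8 and 51.7 CPM, and on the Cast allele at 7.91, 4.33 and 7.73 CPM and then at 7.88, 8.02 and 7.69 CPM. The difference was -1.23 (SE 0.37, edgeR adjusted p = 0.235, with the block 0.0337). For Mrps35 it was -0.72 (adjusted p = 0.433, with the block -0.71 and 0.0362).

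**Figure D4:**
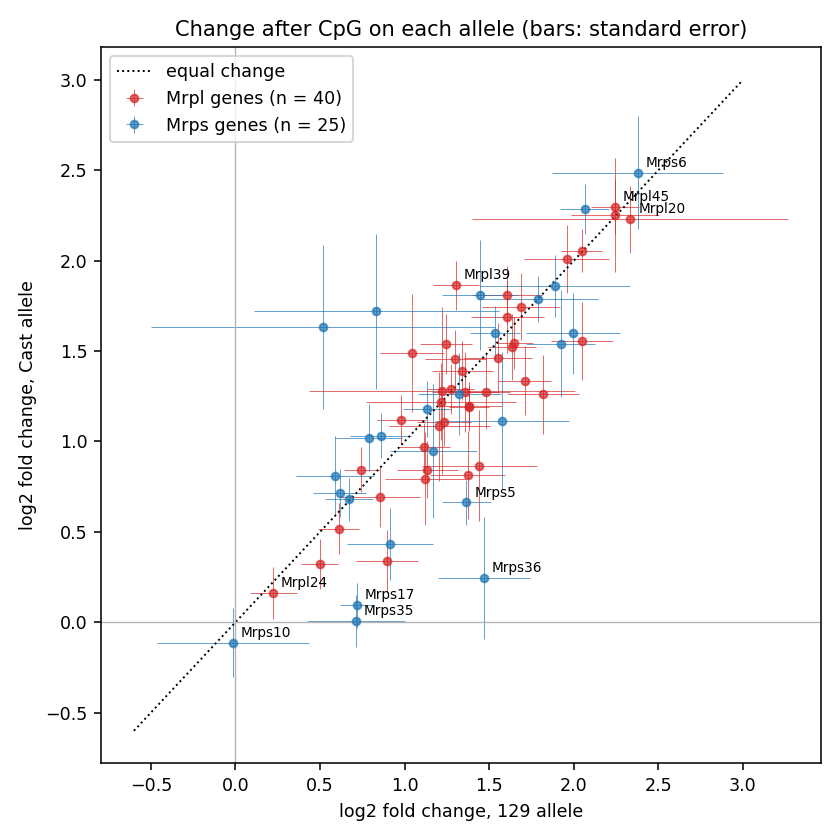
Log2 fold change after CpG on the Cast allele (vertical axis) against that on the 129 allele (horizontal axis) for the members tested on both, with standard errors as bars and a dotted line of equal change. Most points lie along the line, with 55 of 69 members in the interaction test differing by under 0.5, and Mrps17, Mrps5 and Mrps36 lie below it.

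The Cast share of reads was near even for most members and moved little. Over the 58 members with at least 500 reads on both alleles and all samples, the median of the group means was 50.7% in naive and 49.7% in CpG samples. The share stayed between 40% and 60% in both groups for 39 of them, was above 60% in both for 7 and below 40% in both for 6. Those above were Mrpl3, Mrpl19, Mrpl20, Mrpl27, Mrps10, Mrps27 and Mrps35, and those below were Mrpl15, Mrpl43, Mrpl50, Mrpl57, Mrps17 and Mrps36. The group mean moved by under 5 percentage points for 42 members and by over 10 for 2, Mrps5 and Mrps36. The most uneven of the 58 were Mrps35, with 81.0%, 87.3% and 76.9% in the naive and 68.2%, 76.9% and 74.9% in the CpG samples, and Mrpl57, a large subunit protein, with 16.7%, 12.3% and 17.0% and then 18.5%, 21.3% and 21.2%. How much of a share away from 50% comes from the 2 annotations or from how reads were given to a strain was not tested.

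For 4 of these members both samples of 1 replicate number stood apart from the other 4 samples by over 15 points of Cast share. Mrpl20 on chromosome 4, a large subunit protein, had a Cast share of 88.2%, 76.6% and 40.9% in the naive and 76.1%, 73.9% and 41.6% in the CpG samples. The 95% Wilson intervals of replicate 3, which cover counting error only, were 35.2% to 46.9% and 39.2% to 44.1%. Its 129 level was 9.47, 17.9 and 79.7 CPM and then 98.5, 116 and 320 CPM, a rise within each number that did not pass without the block (2.33, SE 0.93, edgeR adjusted p = 0.0842) and passed with it (2.54, adjusted p = 4.15e-06). Without naive replicate 3 it also passed (3.70, adjusted p = 0.0147).

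Mrpl3 had a Cast share of 76.5%, 73.6% and 47.8% and then 73.2%, 74.4% and 50.2%, with Wilson intervals of 43.0% to 52.6% and 47.5% to 52.9% in replicate 3. In Mrps10 it was replicate 1 that stood apart, at 54.1% and 55.9% (49.7% to 58.4% and 52.0% to 59.8%), while the other 4 samples lay between 74.3% and 79.7%. Mrps23 on chromosome 11, a small subunit protein, had 83.2% and 77.6% in replicate 3 (75.7% to 88.7% and 73.3% to 81.4%) and between 43.9% and 57.4% elsewhere. In each case the naive and the CpG sample of that number lay together, outside the range of the rest.

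Genes beside these members were read in the same way, as the 10 nearest genes that had 30 or more reads in each of the samples, 5 on each side in the GENCODE order of GRCm38.p6. Around Mrps23 their median Cast share was 88.0% and 90.9% in replicate 3 and between 49.3% and 52.3% in the other samples. Around Mrpl20 it was 48.5% and 50.3% in replicate 3 and between 61.1% and 64.1% elsewhere, and around Mrpl3 53.3% and 50.7% against 61.2% to 69.7%. Around Mrps10 the median of replicate 1, 45.8% and 48.6%, lay near those of the other samples, 42.6% to 48.5%. In replicate 3, 8 of the 10 genes beside Mrps23, 6 beside Mrpl20 and 6 beside Mrpl3 stood apart in the same direction as the member, as did 2 of 10 beside Mrps10 in replicate 1. The labels used here do not say whether the parents were fully inbred in these regions, and this was not tested. Around Mrps23 replicate 3 lay further from an even share than the other samples. Around Mrpl20 and Mrpl3 it lay nearer to an even share, and the other samples lay further from it. It is therefore uncertain in which samples the values of these 3 members, and the calls that rest on them, stand for 129 and Cast alleles. Fits without naive replicate 3 do not lift this limit. Genes of the related lists can share this limit. Aurkaip1 on chromosome 4 had a Cast share of 48.0% and 42.2% in replicate 3 and 84.7% to 93.0% elsewhere. Mettl17 on chromosome 14 had 81.9% and 88.3% in replicate 2 and 42.9% to 45.0% elsewhere. Both are in the medians of their lists.

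**Figure D5:**
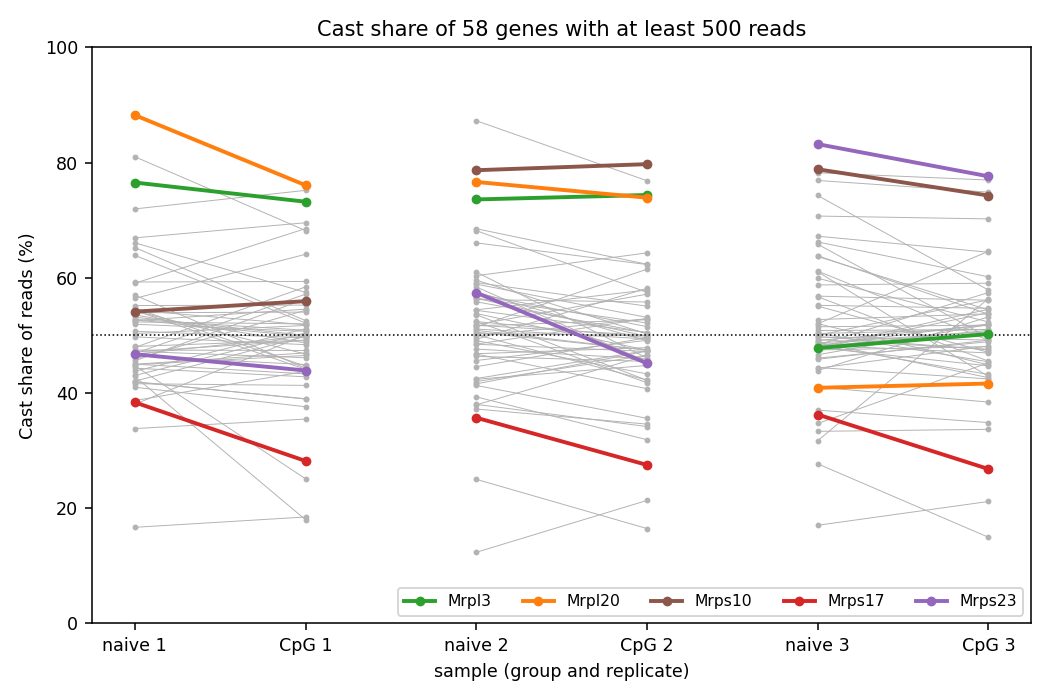
Cast share of reads in percent for the 58 members with at least 500 reads, in the naive and CpG sample of each replicate number, joined by lines within a number. Most members lie around 50% in all 6 samples, and the coloured lines are the 4 members whose share in 1 replicate number stands apart by over 15 points, and Mrps17.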

How the data were processed

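RNA of 6 samples, 3 naive and 3 after CpG, was sequenced with a stranded total RNA kit, per the labels. Each sample had 2 deposited tables of raw read counts per gene, 1 with 129 and 1 with Cast gene identifiers, 12 tables in all, whose closing rows have the htseq-count format. STAR, featureCounts, Subread 2.0.0 and mm10 are named in the submitters' processing notes. How a read was given to a strain, and whether counting used strand, is not given in the sources used here. Summary rows stayed out of library sizes. The row for reads in no gene came to 62.6% to 67.1% of aligned reads in naive and 48.1% to 56.7% in CpG samples in the 129 tables, and to 57.9% to 62.1% and 44.5% to 52.3% in the Cast tables.

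Each set of tables was tested with edgeR 4.0.16 in R 4.3.3 (quasi-likelihood test, robust, TMM, filterByExpr, Benjamini-Hochberg adjustment over all genes tested at 0.05). Standard errors were derived from the F statistic. The interaction used 1 library size for both alleles, and a minimum of 10 reads, both alleles summed, in 3 samples. Genes were matched by name and chromosome (28374). A threshold of a log2 fold change of 1 used glmTreat. DESeq2 1.42.0, other filters and scalings, the replicate block and leaving out each library were alternatives. The fits were also run on simulated data. Of log2 changes of 1 they recovered 28% in the 129 tables, 51% in the Cast tables and 47% in the interaction. Of changes of 2 they recovered 76%, 91% and 95%. A missing call is therefore no evidence of no change.

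The replicate numbers paired the samples by the data. Deviations of same-numbered naive and CpG samples from their group means correlated across genes (which are not independent) at 0.566, 0.447 and 0.612 in the 129 tables and 0.240, 0.170 and 0.255 in the Cast tables.

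The members, the gene lists and the rule for named genes were chosen with earlier results of these data known. Named were the 8 largest mean rises among members called on both alleles, members called lower (0), members past the interaction test, the 4 with the highest mean CPM, the Mrps18 paralogs, members tested on both alleles and called on neither, untested members, and up to 3 genes of each pathway list. Any other gene was named after its values were seen. Mrp63 of the pathway lists is an older symbol of the member Mrpl57. Of the other listed genes, Mrm3, Mtg2, Nsun4, Tfb2m and Twnk, and Mtif2 on the Cast allele, were not analysed here.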

Additional observations from a re-analysis of the deposited data

Results flagged for a closer look

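The change of Mrps17 after CpG differed between the 129 and the Cast allele by the interaction test, close to the threshold. It was the 1 of 69 members that passed, where 0.917% of all genes passed. The Cast minus 129 difference of the log2 fold changes was -0.62 (SE 0.10, unadjusted p = 0.000413, edgeR adjusted p = 0.048), and the Cast share fell in 3 of 3 pairs of samples. The adjusted p was 0.0485 in DESeq2, 0.0733 with a library size for each allele table and 0.000108 with the replicate block. Leaving out any 1 library ended the call, with edgeR adjusted p between 0.143 and 0.179.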

How the results depend on the processing

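No alternative gave a lower member in either set of tables or turned the direction of a named member's call. Against a log2 fold change of 1 (glmTreat), 25 members in the 129 and 27 in the Cast tables were higher, and 2525 and 2827 of all genes were called, against 5842 and 6445. Leaving out 1 library gave 54 to 59 and 58 to 61 members higher, 0 lower and median log2 fold changes of 1.28 to 1.37 and 1.24 to 1.34. The replicate block gave 60 and 64 members higher, and in the interaction 5 members and 779 genes, against 1 member and 95 genes. Beside the calls named above it changed no other call of a member. The interaction called 0 members with a library size for each allele table and 146 genes in DESeq2. Without 1 library it called 0 members and 14 to 26 genes, with 67 to 69 members tested. The cause was not tested. The 5 members with too few reads for a test in either set of tables enter none of these counts.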
